A study of Homo sapiens with 18 samples.

Results

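The 181 genes described here are the zinc finger genes of human chromosome 19 that were transcribed in HAP1 cells, a near-haploid line that descends from the leukaemia line KBM-7. They were taken as the protein-coding genes of chromosome 19 whose symbol is ZNF followed by a digit, with a mean of at least 1 CPM over all 18 samples, where CPM is the count of a gene per 1e6 counts on genes of its sample. For means over all 18 samples, levels summed over genes and the counting ratios of ZNF486 the totals were used as they stand, and for the CPM of a gene in a sample or group they were scaled by TMM, which corrects for a few genes taking a large share of a library. ZNF597 and ZNF143 were excluded by that rule. Of 244 such genes in the count files, 181 reached this floor, 51 of them on the short arm (19p) and 130 on the long arm (19q), and 63 did not. Among those below it, 5 had no count in any sample. The closest genes under the floor were ZNF43 (mean 0.948 CPM), ZNF676 (0.839 CPM) and ZNF665 (0.773 CPM), and the closest above it were ZNF546 (1.15 CPM), ZNF730 (1.503 CPM) and ZNF582 (1.51 CPM). All 181 passed the filter on low counts in each comparison below, except ZNF546 in ΔSCC4 against control A and ZNF486 in ΔWAPL/ΔSCC4 against clone 3.3.

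Zinc finger genes of this kind encode proteins that bind DNA through a row of C2H2 fingers. On chromosome 19 they stand in tandem clusters that arose by repeated gene duplication. Many of the proteins carry a KRAB domain, which recruits the co-repressor TRIM28 and through it the histone methyltransferase SETDB1 and heterochromatin proteins, and they are known for silencing transposable elements. Cohesin is the ring complex that holds chromatin loops. SCC4, encoded by MAU2, loads it onto DNA together with NIPBL, and WAPL releases it.

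RNA was measured in 6 groups of 3 samples, all grown in the same medium without any treatment. Control A and control B are wild type HAP1 cells. Clone 3.3 and clone 1.14 are ΔWAPL cells, in which a CRISPR cut had led to insertion of a Blasticidine resistance cassette into WAPL, and ΔSCC4 cells carry a Puromycin resistance cassette in SCC4. ΔWAPL/ΔSCC4 cells were made by knocking out SCC4 in clone 3.3, so they share its WAPL allele. Each knockout was therefore 1 clone, except for WAPL with 2, and per the methods of the study the parental cells carry a mutant p53. Clone 3.3, ΔSCC4 and ΔWAPL/ΔSCC4 were compared with control A and share those 3 samples, and clone 1.14 was compared with control B. Nothing in the labels says that the 3 samples of a group were separate cultures, so the p-values measure the spread between these samples, which may be technical, and not the spread between clones.

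The total count on genes was 10007646 to 20711127 per sample, and no replicate pair held identical counts. WAPL RNA was 99.4 ± 21.6 CPM (SD, n = 3) in control A and 43.7 ± 5.73 CPM in clone 3.3 (log2 fold change -1.20, adjusted p = 0.000209, edgeR), and 120 ± 14.5 CPM in control B and 41.4 ± 2.89 CPM in clone 1.14 (-1.55, adjusted p = 7.44e-05). MAU2 RNA was 65.6 ± 6.12 CPM in control A, 56.1 CPM in clone 3.3, 0.699 ± 0.243 CPM in ΔSCC4 and 0.936 ± 0.0996 CPM in ΔWAPL/ΔSCC4. Of the blood cell markers 8 of 8 had a group mean of at most 0.173 CPM, and CD3E, SPI1 and HBG1 had no count. VIM, ACTB, GAPDH and EEF1A1 were high, with VIM at 254.8 to 587.1 CPM. The fibroblast marker COL1A1 had group means of 11.4 to 29.4 CPM, while COL1A2, DCN and LUM were at most at 0.0224 CPM. Of the 4 epithelial markers KRT8 stood at 48.6 CPM in ΔWAPL/ΔSCC4 and at 2.35 to 10.4 CPM in the other groups, KRT18 at 73.7 CPM in ΔWAPL/ΔSCC4 and at 42.6 to 62.0 CPM in the others, EPCAM at 0.0953 to 1.505 CPM (0.658 in ΔWAPL/ΔSCC4) and CDH1 at 0.147 CPM or less (0 in ΔWAPL/ΔSCC4). In bulk RNA, fewer cells expressing a gene and less RNA per cell cannot be told apart.

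The results turn on a small number of genes that moved in both WAPL-deficient clones, and on 1 that moved in a single clone. Their promoters are shown to let a reader compare genes that changed together, as the 250 bases before the start of the RefSeq gene on GRCh38.p14, 5′ to 3′ on the strand of the gene, with every CG dinucleotide in capitals. ZNF486 (chr19:20166964-20167213, plus strand), ZNF256 (chr19:57947707-57947956, minus strand), ZNF793 (chr19:37506689-37506938, plus strand) and ZNF814 (chr19:57889038-57889287, minus strand) were lower in both clones. ZNF440 (chr19:11814023-11814272, plus strand), ZNF563 (chr19:12333634-12333883, minus strand) and ZNF606 (chr19:58002821-58003070, minus strand) were higher in both. ZNF329 (chr19:58150790-58151039, minus strand) was lower in clone 3.3 alone of the clones tested. On GRCh37 the stretches of ZNF329 (chr19:58662157-58662406) and ZNF606 (chr19:58514189-58514438) lie inside the gene spans given below. Those of ZNF814 and ZNF563 lie partly inside theirs. For these genes the RefSeq start differs from the start of the gene span used for position.
ZNF486: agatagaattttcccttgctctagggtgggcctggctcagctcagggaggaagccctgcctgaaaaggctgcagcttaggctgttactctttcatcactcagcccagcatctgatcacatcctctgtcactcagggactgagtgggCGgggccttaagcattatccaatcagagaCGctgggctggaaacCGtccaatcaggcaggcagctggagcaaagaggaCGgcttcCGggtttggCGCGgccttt
ZNF256: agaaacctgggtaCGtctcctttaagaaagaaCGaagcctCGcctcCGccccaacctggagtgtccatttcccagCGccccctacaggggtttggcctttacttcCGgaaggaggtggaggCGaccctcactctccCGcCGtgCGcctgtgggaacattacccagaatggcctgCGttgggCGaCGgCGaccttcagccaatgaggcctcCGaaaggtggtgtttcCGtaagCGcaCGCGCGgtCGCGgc
ZNF793: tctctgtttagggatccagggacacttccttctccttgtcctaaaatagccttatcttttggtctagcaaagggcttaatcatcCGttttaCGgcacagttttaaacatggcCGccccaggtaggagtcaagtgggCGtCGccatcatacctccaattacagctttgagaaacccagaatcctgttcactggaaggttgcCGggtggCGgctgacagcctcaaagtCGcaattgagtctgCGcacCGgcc
ZNF814: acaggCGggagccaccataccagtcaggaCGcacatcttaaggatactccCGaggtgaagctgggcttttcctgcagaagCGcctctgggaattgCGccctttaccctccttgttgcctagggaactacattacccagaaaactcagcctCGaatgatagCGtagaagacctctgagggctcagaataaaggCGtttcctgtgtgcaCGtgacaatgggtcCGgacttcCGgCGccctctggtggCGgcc
ZNF440: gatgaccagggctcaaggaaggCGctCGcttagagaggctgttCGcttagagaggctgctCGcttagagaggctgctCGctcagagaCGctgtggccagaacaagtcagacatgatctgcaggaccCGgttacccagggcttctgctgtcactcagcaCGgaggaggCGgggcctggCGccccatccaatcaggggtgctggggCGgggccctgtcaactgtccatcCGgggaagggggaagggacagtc
ZNF563: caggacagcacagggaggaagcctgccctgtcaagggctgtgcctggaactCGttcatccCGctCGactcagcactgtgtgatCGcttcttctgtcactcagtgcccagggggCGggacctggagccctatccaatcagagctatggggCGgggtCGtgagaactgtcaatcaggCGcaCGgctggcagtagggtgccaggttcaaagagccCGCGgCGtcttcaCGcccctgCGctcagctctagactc
ZNF606: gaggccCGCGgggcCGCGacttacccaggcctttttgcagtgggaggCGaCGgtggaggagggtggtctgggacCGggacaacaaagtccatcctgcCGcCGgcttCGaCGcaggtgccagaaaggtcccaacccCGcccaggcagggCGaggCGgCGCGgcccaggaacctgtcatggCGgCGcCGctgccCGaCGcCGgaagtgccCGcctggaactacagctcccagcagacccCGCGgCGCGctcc
ZNF329: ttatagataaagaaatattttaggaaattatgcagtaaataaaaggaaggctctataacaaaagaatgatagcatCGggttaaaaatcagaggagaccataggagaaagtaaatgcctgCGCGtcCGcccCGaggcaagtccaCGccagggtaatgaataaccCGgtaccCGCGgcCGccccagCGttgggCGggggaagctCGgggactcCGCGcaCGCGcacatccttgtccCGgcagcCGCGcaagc

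The promoter of ZNF486 held 7 CG dinucleotides and that of ZNF606 held 27, with ZNF793 at 10, ZNF440 at 12, ZNF814 at 13, ZNF563 at 14, ZNF329 at 20 and ZNF256 at 22. As many or more were found in 58.4% of all 27305 promoters of the table for ZNF486 and in 17.3% for ZNF606. Genes that fell and genes that rose were mixed in this order. A promoter was found for 164 of the 181 genes, with a median of 16 CG against 11 over all promoters. The letters AGGGGGC, the variant reading AGGTGGC, the third variant AGAGGGC and the last variant AGATGGC, searched on both strands, are forms of the core of the binding motif of CTCF, the protein at many loop anchors. At least 1 of them occurred in 3 of the 8 promoters shown (ZNF256, ZNF814 and ZNF563). They occurred in 49 of 164 promoters (29.9%) and in 26.3% of all promoters, so the share over the zinc finger genes was near the share over all genes.

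On GRCh37 the genes fell into 9 clusters of at least 5 expressed genes, with neighbours at most 500 kb apart. On 19p they are called p1 (chr19:8574562-9903856, 11 of 14 annotated genes expressed, from ZNF414 to ZNF846), p2 (chr19:11594242-12750912, 14 of 26, ZNF653 to ZNF791) and p3 (chr19:19779605-24312770, 19 of 37, ZNF101 to ZNF254). On 19q they are q1 (chr19:35168544-35455133, 5 of 5, ZNF302 to ZNF792), q2 (chr19:36673178-38307940, 23 of 26, ZNF565 to ZNF573) and q3 (chr19:44029649-45004576, 17 of 23, ZNF576 to ZNF180), followed by q4 (chr19:52074536-54083523, 25 of 40, ZNF175 to ZNF331), q5 (chr19:55987984-57183151, 14 of 16, ZNF628 to ZNF71) and q6 (chr19:57702868-58992597, 36 of 43, ZNF805 to ZNF446). Transcripts of the 181 genes were rich in A and T, with a median GC content of 43.6% against 47.7% over all genes at the same floor and 59.8% over the 666 other genes of chromosome 19. Cluster q5 stood apart with a median of 62.8%, and p3 was lowest with 38.2%. The genes were weakly expressed, with a median of 10.2 CPM against 37.6 CPM over all genes at the floor.

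Per kilobase of exon the highest levels over all samples were those of ZNF146 (37.5 CPM per kb), ZNF428 (22.5), ZNF581 (15.9), ZNF317 (12.8) and ZNF587 (9.91). Because these genes are close copies of each other, part of their sequence cannot be assigned to 1 gene. A median of 9.4% of the 31-base words in the transcripts of a gene also occurred in another gene, 95 of the genes were under 10% and 3 were over 50% (ZNF724, ZNF443 and ZNF490). The share was 20.1% for ZNF486, 3.9% for ZNF256, 9.2% for ZNF793, 13.5% for ZNF814, 24.7% for ZNF440, 12.4% for ZNF563, 2.4% for ZNF606 and 10.9% for ZNF329. ZNF814 also lies across ZNF587 on the other strand, a gene of 72.9 CPM, and its values are uncertain, since the strand setting of the counting is not given in the sources used here.

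The samples of a group differed in how the zinc finger genes stood as a whole. The median deviation of the 181 genes from their own mean log2 CPM was -0.35, -0.06 and 0.11 in the 3 samples of control A, 0.17, -0.04 and -0.15 in clone 3.3, and -0.17, 0.01 and 0.21 in ΔSCC4. It was -0.17, -0.02 and -0.23 in ΔWAPL/ΔSCC4, 0.00, -0.10 and 0.19 in control B, and 0.32, 0.27 and 0.35 in clone 1.14. Clone 1.14 was the one group whose samples all lay above those of every other group, while the samples of the remaining groups overlapped. The summed level of the genes gave 3001 ± 93.7 CPM (SD, n = 3) in clone 1.14 and 2487 ± 344 CPM in control B, and group means of 2278 to 2538 CPM in the others. These medians tended to move with GC content over all genes, with exceptions. Control A replicate 1 had the lowest median of the 18 samples and a Spearman's rho of 0.55 between deviation and GC over all genes, and control A replicate 3 had a rho of -0.53. In clone 1.14 rho was -0.27 to -0.43. Counts from fits with a GC correction are given below where they differ from those without by over 1.5 times.

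**Figure D1:**
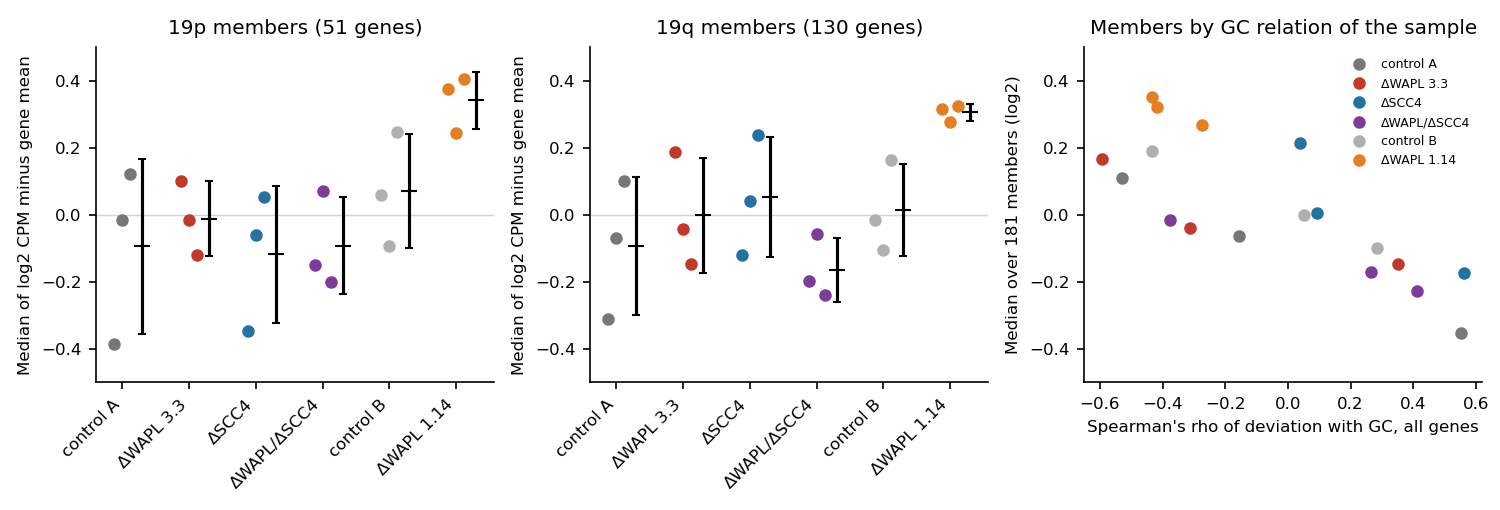
Median deviation of the zinc finger genes from their own mean log2 CPM in each sample, for 51 genes of 19p (left) and 130 genes of 19q (middle), with coloured points for samples and a black bar for the group mean ± SD (n = 3), and the median over all 181 genes against Spearman's rho of the deviation with GC content over all genes (right). Clone 1.14 lies highest at 0.27 to 0.35 over all 181 genes, and samples with a higher rho tend to have lower medians. Exceptions include ΔSCC4 replicate 3 (rho 0.04, median 0.21) and clone 3.3 replicate 2 (rho -0.31, median -0.04).

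WAPL loss was compared with wild type cells in each clone, to ask how zinc finger genes respond when cohesin is not released. In clone 3.3, 11 of the 181 genes passed the threshold of an adjusted p under 0.05 (edgeR quasi-likelihood test, Benjamini-Hochberg adjustment over all 12489 genes tested), 5 higher and 6 lower. These were 6.08% of the genes, beside 8.07% of all genes tested (4.17% higher and 3.9% lower). The median log2 fold change was 0.07, with -0.00 over all genes, and 108 of 181 values were positive. The median was 0.03 on 19p, with 2 genes higher and 2 lower, and 0.08 on 19q, with 3 higher and 4 lower. The median turned negative without control A replicate 1 (-0.02) or clone 3.3 replicate 1 (-0.02), and the count fell to 6 without control A replicate 2 and to 7 without clone 3.3 replicate 2, where calls over all genes fell from 1008 to 715 and 686.

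Clone 1.14 gave 36 genes past the threshold, 31 higher and 5 lower. The share called, 19.9%, was near the 20.1% of all genes tested (8.7% higher and 11.4% lower), but the direction was uneven, with 17.1% of the zinc finger genes higher and 2.76% lower. The median log2 fold change was 0.27 against 0.00 over all genes, and 144 of 181 values were positive. Both arms took part, with 11 of 51 genes of 19p higher and 1 lower (median 0.26) and 20 of 130 genes of 19q higher and 4 lower (median 0.27). Beside them, ZNF genes on other chromosomes gave 15 higher and 13 lower of 211 (median 0.10), the other genes of chromosome 19 gave 18 higher and 84 lower of 666 (median -0.07), and of 7 zinc finger genes of chromosome 19 with other names none passed (median 0.27), 2 of them at an unadjusted p under 0.05. The log2 fold changes of all genes fell with GC content (Spearman's rho -0.33 across 12494 genes, which are not independent), and 3968 genes with a lower GC content than the median zinc finger gene had a median of 0.15, with 10.4% higher and 5.22% lower. With a GC correction the median was 0.25 and 54 genes passed, 47 higher and 7 lower, while calls over all genes rose from 2536 to 3512. The counts changed with the sample left out, over all genes too. For the zinc finger genes the count was 13 without control B replicate 1, 88 without control B replicate 3, and 11, 20 and 13 without clone 1.14 replicate 1, 2 and 3, and over all genes it was 1523, 4820, 1415, 1701 and 1473 in the same order.

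With both clones in 1 fit and the set of controls as a covariate, 32 genes passed, 27 higher and 5 lower (17.7% of the genes, 14.9% higher and 2.76% lower), where 17.7% of all genes tested passed, 8.56% higher and 9.13% lower. The median was 0.19. Log2 fold changes fell with GC content over all genes (rho -0.29 across 12640 genes). The 3969 genes of low GC content had a median of 0.13, with 12.2% higher and 3.98% lower. With a GC correction the median of the zinc finger genes lay 0.13 above that over all genes. ZNF genes of other chromosomes had a median of 0.04 (15 higher, 12 lower of 211), and the other genes of chromosome 19 -0.02 (17 higher, 55 lower of 666). By arm, 8 genes of 19p were higher and 1 lower, and 19 of 19q were higher and 4 lower. The count was 54 without control A replicate 3, 21 without clone 3.3 replicate 1 and 20 without clone 1.14 replicate 3, beside 2865, 2173 and 1841 over all genes, from 2262.

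**Figure D2:**
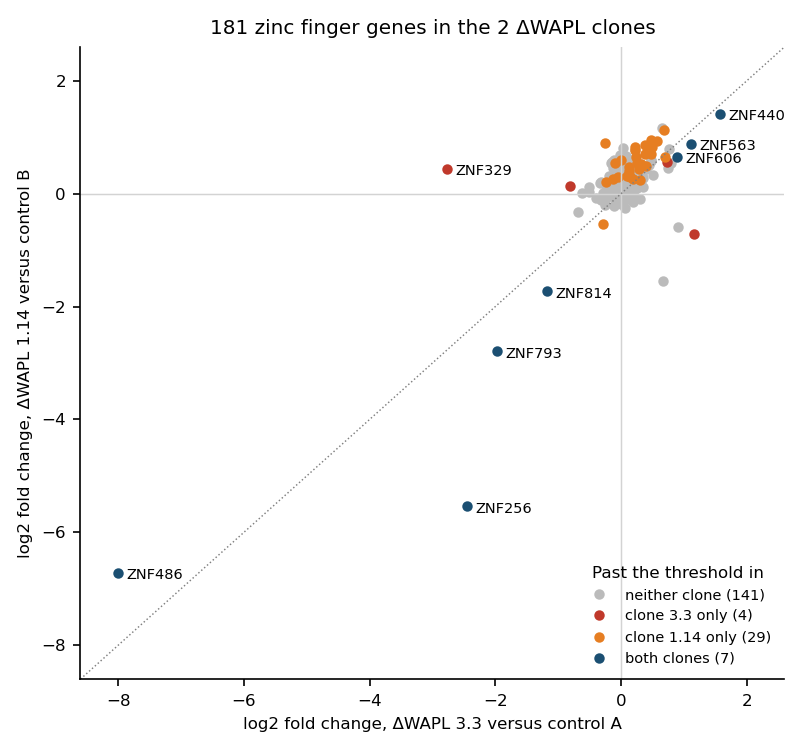
Log2 fold change of each of the 181 zinc finger genes in ΔWAPL clone 3.3 against control A (horizontal axis) and in clone 1.14 against control B (vertical axis), coloured by the clone in which the gene passed the threshold, with the dotted line for equal changes. The 7 genes named in dark blue passed in both clones, ZNF329 lies far to the left with -2.77 in clone 3.3 and 0.45 in clone 1.14, and most orange points lie above 0 on the vertical axis.

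In both clones 7 genes passed, and each moved in the same direction, 4 lower and 3 higher. They are 63.6% of the 11 genes called in clone 3.3 and 19.4% of the 36 in clone 1.14. Over all 12415 genes tested in both clones, 735 passed in both, which is 75.2% of those called in clone 3.3 and 30.2% of those called in clone 1.14, and 694 of the 735 (94.4%) had the same direction. With only 11 and 36 calls the shares for the zinc finger genes are uncertain, and whether they differ from those over all genes was not tested. The clones share no control sample. ZNF486 (chr19:20278023-20311297 on GRCh37, plus strand, cluster p3) had 1.43, 2.29 and 2.15 CPM in control A and no count in any sample of clone 3.3, and 7.29, 5.44 and 7.59 CPM in control B against 0.0531, 0 and 0.121 CPM in clone 1.14. It was silent or nearly so in both clones, while control B had more than control A. Taken as 3 counts over the group, the level in clone 3.3 was at least 32.1-fold lower than in control A, where 95 counts were found (adjusted p = 9.66e-06). In clone 1.14 there were 3 counts against 323 in control B, a level 118 times lower (95% interval 40.1 to 577, for counting error only; adjusted p = 4.60e-05).

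ZNF256 (chr19:58452201-58459074, minus strand, cluster q6) encodes a KRAB protein known to bind TRIM28. It had 6.18, 6.50 and 7.04 CPM in control A and 1.40, 1.13 and 1.06 CPM in clone 3.3, and 10.9, 9.94 and 9.45 CPM in control B against 0.213, 0.0596 and 0.363 CPM in clone 1.14. The groups were far apart in both clones, and the loss was deeper in clone 1.14. The log2 fold changes were -2.45 (SE 0.207, adjusted p = 1.45e-06) and -5.54 (SE 0.262, adjusted p = 2.14e-05), and the difference between them was tested and was 3.11 (SE 0.383, adjusted p = 0.000286).

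ZNF793 (chr19:37997841-38039664, plus strand, cluster q2) had 1.95, 3.10 and 3.70 CPM in control A and 0.849, 0.778 and 0.597 CPM in clone 3.3, and 7.09, 6.45 and 9.0 CPM in control B against 1.38, 0.774 and 1.09 CPM in clone 1.14. All samples of either clone lay under all samples of either control. The log2 fold changes were -1.97 (SE 0.292, adjusted p = 0.000319) and -2.79 (SE 0.218, adjusted p = 0.000171). ZNF814 (chr19:58360099-58400442, minus strand, cluster q6) had 2.08, 2.35 and 2.80 CPM in control A and 1.45, 0.636 and 1.06 CPM in clone 3.3, and 4.77, 4.64 and 5.74 CPM in control B against 1.43, 1.73 and 1.45 CPM in clone 1.14. It fell by 1.17 (SE 0.278, adjusted p = 0.0141) and 1.73 (SE 0.148, adjusted p = 0.000271) on the log2 scale. The call in clone 3.3 was lost without control A replicate 3 (-1.05) or clone 3.3 replicate 2 (-0.95).

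Among the 3 genes that were higher in both clones, ZNF440 (chr19:11925088-11946031, plus strand, cluster p2) changed most. It had 2.15, 4.64 and 4.65 CPM in control A and 15.6, 10.3 and 8.43 CPM in clone 3.3, and 5.72, 4.90 and 7.43 CPM in control B against 16.2, 16.2 and 16.4 CPM in clone 1.14. The clones and controls did not overlap, and the samples of clone 3.3 were more spread than those of clone 1.14. The log2 fold changes were 1.57 (SE 0.268, adjusted p = 0.00113) and 1.41 (SE 0.136, adjusted p = 0.000471).

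ZNF563 (chr19:12428291-12444534, minus strand), in the same cluster p2, had 0.911, 1.67 and 2.21 CPM in control A and 4.14, 3.25 and 3.05 CPM in clone 3.3, and 1.84, 1.55 and 2.25 CPM in control B against 3.77, 2.98 and 3.81 CPM in clone 1.14. Again every clone sample exceeded every control sample. The log2 fold changes were 1.11 (SE 0.266, adjusted p = 0.0153) and 0.88 (SE 0.179, adjusted p = 0.0136). The first call was lost without control A replicate 2 (1.13) or clone 3.3 replicate 1 (0.97), and the second without control B replicate 1 (0.88), clone 1.14 replicate 1 (0.82) or replicate 3 (0.82).

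ZNF606 (chr19:58488444-58514717, minus strand) lies in cluster q6 next to ZNF256. It had 3.12, 4.02 and 5.37 CPM in control A and 8.24, 8.62 and 6.57 CPM in clone 3.3, and 5.45, 4.50 and 6.75 CPM in control B against 9.30, 8.87 and 8.54 CPM in clone 1.14. So the neighbours ZNF256 and ZNF606 moved in opposite directions in both clones. ZNF606 had log2 fold changes of 0.89 (SE 0.206, adjusted p = 0.0123) and 0.66 (SE 0.141, adjusted p = 0.0167). These calls were lost without control A replicate 2 (0.85) or clone 3.3 replicate 2 (0.81), and without control B replicate 1 (0.65) or any of the 3 samples of clone 1.14 (0.62, 0.68 and 0.68).

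ZNF329 (chr19:58637615-58666477, minus strand), the next expressed zinc finger gene after ZNF606 along cluster q6, separated the clones. It had 7.68, 8.23 and 6.44 CPM in control A and 0.999, 1.27 and 1.06 CPM in clone 3.3, but 10.0, 11.8 and 8.66 CPM in control B and 14.03, 12.8 and 15.0 CPM in clone 1.14. Clone 3.3 lay far under its controls and clone 1.14 slightly above its own. The log2 fold change was -2.77 in clone 3.3 (SE 0.22, adjusted p = 8.68e-07) and 0.45 in clone 1.14 (adjusted p = 0.0508), and their difference was -3.20 (SE 0.232, adjusted p = 1.75e-06).

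**Figure D3:**
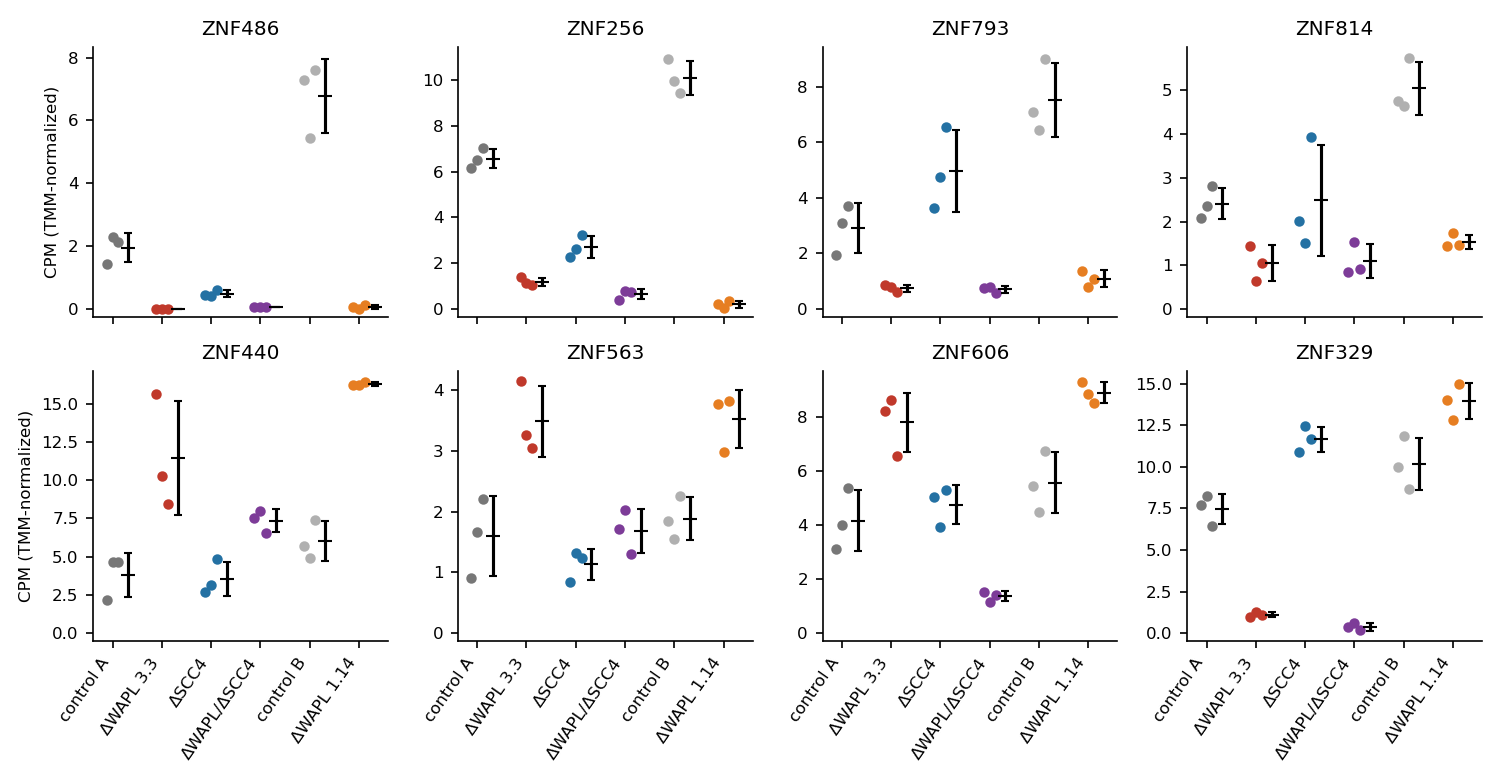
CPM (TMM-normalized, linear axes) of 8 zinc finger genes in the 18 samples, with coloured points for samples and a black bar for the group mean ± SD (n = 3). ZNF486, ZNF256, ZNF793 and ZNF814 lie under the controls in both ΔWAPL clones, ZNF440, ZNF563 and ZNF606 lie above them, and ZNF329 is near 1 CPM in clone 3.3 and at 12.8 to 15.0 CPM in clone 1.14.

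The difference between the clones was past the threshold for 4 of the 181 genes (2.21% of them), beside 2.65% of all genes tested, 1.67% with a higher value in clone 3.3 and 0.985% with a lower one. Most values were negative, with a median difference of -0.20 and 41 of 181 positive (22.7%), against 0.00 and 50.4% over all genes. The median over ZNF genes of other chromosomes was -0.15, with 63 of 211 positive (29.9%). For the 7 zinc finger genes of chromosome 19 with other names it was -0.27, with 1 positive. The other genes of chromosome 19 had a median of 0.11, with 66.5% positive. Over all genes the difference rose with GC content (rho 0.19 across 12640 genes). Besides ZNF329 and ZNF256 the genes past the threshold were ZNF546 (1.89, SE 0.465, adjusted p = 0.0481) and ZNF544 (1.52, SE 0.374, adjusted p = 0.0495). ZNF546 (chr19:40490041-40526945, plus strand, outside the clusters) had 0.65, 1.05 and 1.37 CPM in control A, 2.85, 2.55 and 1.59 CPM in clone 3.3, 1.36, 0.739 and 1.52 CPM in control B and 0.744, 0.715 and 0.787 CPM in clone 1.14. It was higher in clone 3.3 (log2 fold change 1.16, adjusted p = 0.0240), a call lost without control A replicate 1 (0.94) or replicate 2 (1.17) or clone 3.3 replicate 1 (0.99) or replicate 2 (1.10). The calls of the difference for ZNF546 and ZNF544 were close to the threshold and were lost in most fits that left out 1 library. That of ZNF546 held only without control A replicate 3, clone 3.3 replicate 3 or control B replicate 2, among fits that left out 1 library, and otherwise gave 1.65 to 1.93, and that of ZNF544 held only without clone 3.3 replicate 3 or clone 1.14 replicate 2, and otherwise gave 1.12 to 1.63. The count was 2 without control A replicate 2, clone 3.3 replicate 2, control B replicate 1, or clone 1.14 replicate 1 or 3.

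Clone 3.3 had 2 further genes past the threshold. ZNF615 (chr19:52494585-52511483, minus strand, cluster q4) had 5.66, 7.06 and 7.99 CPM in control A and 12.6, 10.96 and 11.2 CPM in the clone (log2 fold change 0.73, SE 0.17, adjusted p = 0.0122), a call lost without control A replicate 2 (0.74). ZNF681 (chr19:23921997-23941693, minus strand, cluster p3) had 7.55, 10.6 and 14.9 CPM in control A and 6.94, 6.65 and 5.38 CPM in the clone (-0.81, SE 0.219, adjusted p = 0.0310).

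Of the genes that passed in clone 1.14 and not in clone 3.3, none was among the 4 whose difference between the clones passed, so they are not shown to differ between the clones. Of the rises, the largest after ZNF440 were ZNF442 (1.14, SE 0.171, adjusted p = 0.00379), ZNF112 (0.95, SE 0.246, adjusted p = 0.0340), ZNF284 (0.93, SE 0.222, adjusted p = 0.0261) and ZNF846 (0.89, SE 0.172, adjusted p = 0.0110). ZNF442 (chr19:12460185-12476719, minus strand, cluster p2) had 1.64, 1.55 and 1.24 CPM in control B and 3.24, 2.86 and 3.63 CPM in the clone, and ZNF112 (chr19:44830708-44871377, minus strand, cluster q3) had 4.09, 2.75 and 6.41 CPM against 8.71, 8.40 and 9.20 CPM. For both, all samples of the clone were above all controls. ZNF112 lost its call without control B replicate 1 (0.91) or clone 1.14 replicate 1 (0.96), 2 (1.00) or 3 (0.92), and ZNF284, 48.2% of whose 31-base words occur in other genes, without control B replicate 1 (0.86) or clone 1.14 replicate 1 (0.99) or 2 (0.76). ZNF284 and ZNF846 also lost theirs in 1 fit over all samples (adjusted p = 0.0510 and 0.0544). The fifth fall was that of ZNF581 (chr19:56146825-56156989, plus strand, cluster q5), which had 26.8, 28.1 and 24.4 CPM in control B and 18.01, 18.7 and 18.2 CPM in the clone (-0.54, SE 0.08, adjusted p = 0.00354). ZNF581 overlaps CCDC106 and ZNF580 on the same strand, and its counts are uncertain for that reason.

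Over both clones the largest rises after ZNF440 were ZNF563 (1.00, SE 0.182, adjusted p = 0.00112), ZNF441 (0.94, SE 0.273, adjusted p = 0.0276), ZNF442 (0.92, SE 0.14, adjusted p = 0.000251) and ZNF471 (0.79, SE 0.246, adjusted p = 0.0395). ZNF441 (chr19:11877815-11894893, plus strand, cluster p2) had 3.90, 4.21 and 4.77 CPM in control A and 8.64, 6.36 and 5.51 CPM in clone 3.3, and 2.73, 1.81 and 8.10 CPM in control B against 11.6, 7.62 and 10.1 CPM in clone 1.14, where the groups overlap. Its call was lost without control A replicate 1 (0.93), clone 3.3 replicate 1 (0.88), control B replicate 1 (0.80), or clone 1.14 replicate 1 (0.84) or 3 (0.90). The call of ZNF471, in cluster q5, held only without control A replicate 3, control B replicate 3 or clone 3.3 replicate 3, and was otherwise 0.62 to 0.83.

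The genes are given next by cluster, and whether the clusters differ from each other was not tested. In cluster p2, the median deviation of the 14 genes was -0.41, -0.20 and 0.09 in control A and 0.25, 0.22 and 0.12 in clone 3.3, and -0.12, -0.33 and 0.14 in control B against 0.60, 0.41 and 0.61 in clone 1.14. Both clones lay above all samples of their own controls. In clone 3.3, 2 of the 14 genes were higher, the median log2 fold change was 0.39 and 11 of 14 values were positive, and in clone 1.14, 6 of 14 were higher, with a median of 0.58. Over both clones 7 of the 14 were higher and none lower (ZNF440, ZNF563, ZNF441, ZNF442, ZNF700, ZNF136 and ZNF823).

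Cluster q3 gave 8 of 17 genes higher in clone 1.14 with a median of 0.35, and 6 of 17 over both clones. In clone 3.3 none of them passed, 3 had an unadjusted p under 0.05, and 16 of 17 values were positive with a median of 0.23. Cluster p1 gave 5 of 11 higher in clone 1.14 (median 0.26) and none in clone 3.3 (median 0.03, 1 at an unadjusted p under 0.05). Clusters with a high median but few genes past the threshold in clone 1.14 were q2 (0.40, 3 higher and 1 lower of 23), q4 (0.33, 1 of 25) and p3 (0.33, none higher and ZNF486 lower, of 19). In p3 the level in control B replicate 2 was -0.82, against 0.13 and 0.40 in the other 2 controls of that set. Cluster q6 gave 6 higher and 2 lower of 36 in clone 1.14 (median 0.22) and 1 higher and 3 lower in clone 3.3 (median 0.00), cluster q5 gave 1 lower of 14 in clone 1.14 (median 0.17), and q1 gave 1 higher of 5 (median 0.36).

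**Figure D4:**
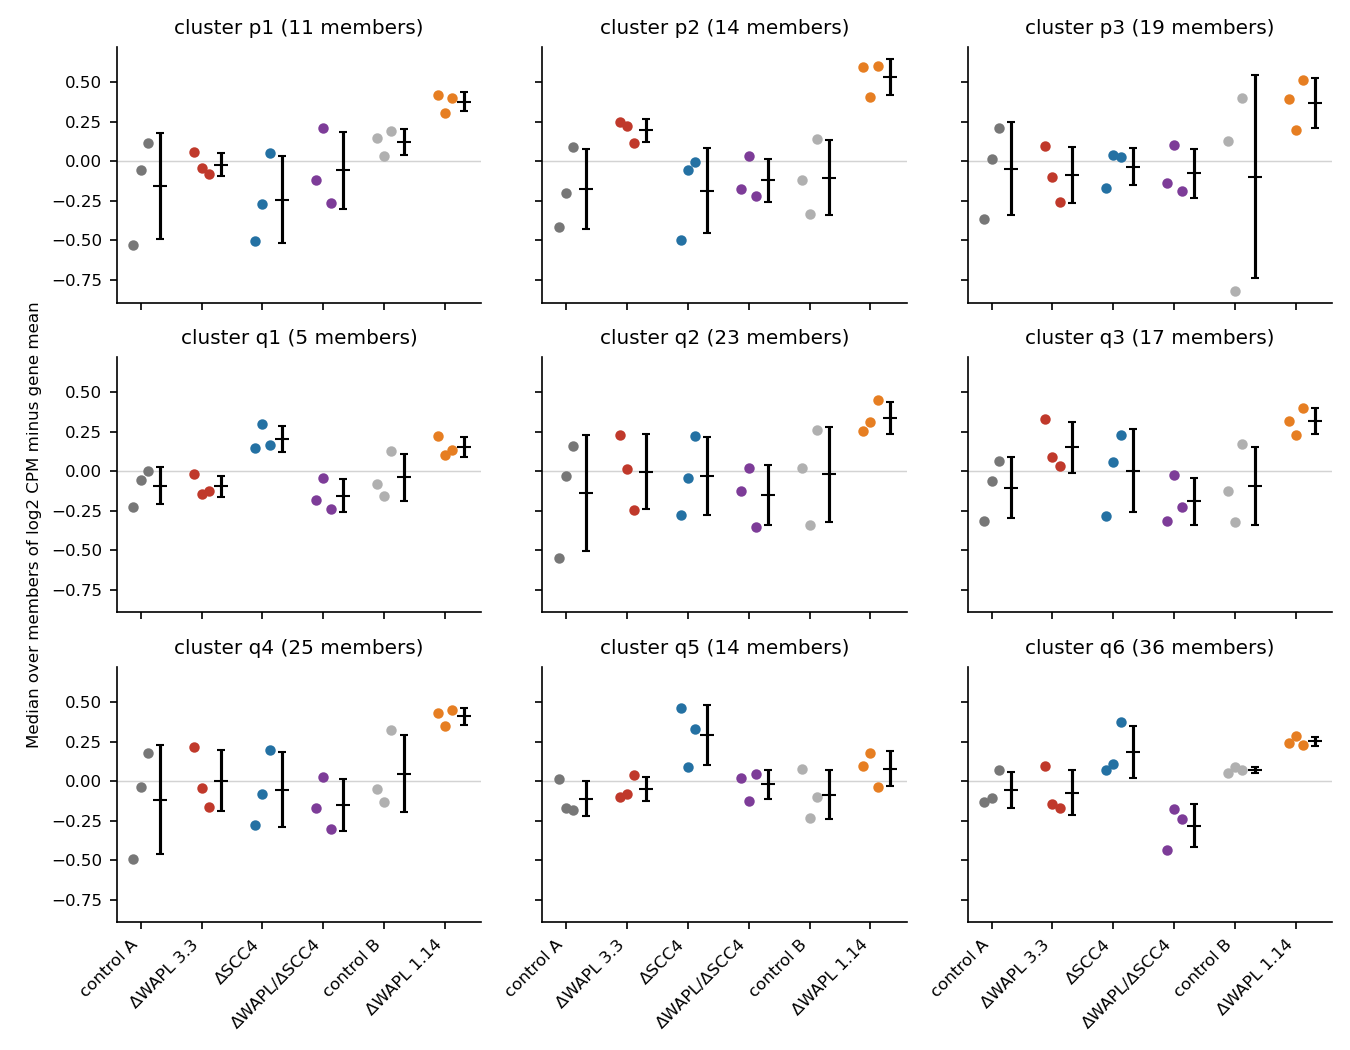
Median deviation of the genes of each of the 9 clusters from their own mean log2 CPM, by sample, with coloured points for samples and a black bar for the group mean ± SD (n = 3). Cluster p2 lies above its controls in both ΔWAPL clones, cluster q5 is high in ΔSCC4 at 0.29 ± 0.19, cluster q6 is lowest in ΔWAPL/ΔSCC4 at -0.28 ± 0.14, and control B replicate 2 lies at -0.82 in cluster p3.

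SCC4 loss was compared with control A, to ask what happens when less cohesin is loaded. Of 180 genes tested, 10 passed, 8 higher and 2 lower (5.56%), beside 9.49% of all genes tested, 5.45% higher and 4.03% lower. The median log2 fold change was 0.13, and was -0.04 on 19p, where ZNF486 was the single gene past the threshold, and 0.17 on 19q, where 8 of 129 were higher and 1 lower. Other lists had medians near that of the zinc finger genes. It was 0.10 for ZNF genes of other chromosomes, with 12 higher and 3 lower of 210. For the other genes of chromosome 19 it was 0.12, with 27 higher and 16 lower of 665. Samples of ΔSCC4 and control A with the same number deviated together. With the replicate number as a block 67 of 180 genes passed, 45 higher and 22 lower (37.2%), beside 46% of all genes tested, 22.3% higher and 23.7% lower, and with a GC correction as well 63 were higher and 13 lower. With the block alone, on 19p 9 were higher and 13 lower, on 19q 36 higher and 9 lower, and the 10 genes called without the block were among the 67. Without the block, the count was 27 and the median 0.00 without control A replicate 1, the count was 5 without control A replicate 2 and 6 without ΔSCC4 replicate 2, and with a GC correction it was 30, 27 higher and 3 lower. Over all genes these fits gave 2317, 662, 805 and 2569 calls, from 1186. Log2 fold changes rose with GC content over all genes (rho 0.28 across 12365 genes), and the genes of low GC content had a median of -0.10.

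The 4 largest rises were those of 2 pairs of genes next to each other in the order of the 181, near the end of the long arm. Genes outside the 181 were left out of this order. ZNF582 (chr19:56887215-56904907, minus strand, cluster q5), a gene known for promoter methylation in tumours, had 0.911, 0.990 and 0.895 CPM in control A and 2.40, 2.12 and 2.55 CPM in ΔSCC4. ZNF583 (chr19:56909335-56947404, plus strand), its neighbour, had 1.30, 1.55 and 2.21 CPM in control A and 3.95, 3.84 and 3.93 CPM in ΔSCC4. The samples of ΔSCC4 were close together and above every control for both genes. The log2 fold changes were 1.34 (SE 0.231, adjusted p = 0.00402) for ZNF582 and 1.20 (SE 0.227, adjusted p = 0.00684) for ZNF583.

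The other pair was ZNF544 (chr19:58739960-58788861, plus strand) and ZNF497 (chr19:58865723-58874214, minus strand) in cluster q6. ZNF544 had 1.30, 1.49 and 1.67 CPM in control A and 3.43, 3.03 and 3.44 CPM in ΔSCC4 (log2 fold change 1.15, SE 0.208, adjusted p = 0.00513), and ZNF497 had 1.43, 1.24 and 1.49 CPM against 2.92, 2.73 and 3.24 CPM (1.09, SE 0.213, adjusted p = 0.00823). The groups did not overlap for either gene. The call of ZNF497 was lost without control A replicate 2 (1.01). ZNF544 stood at 3.13, 3.63 and 2.98 CPM in control B, so control B was near ΔSCC4 for this gene.

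In the fit without the block ZNF329 followed, with 10.9, 12.4 and 11.6 CPM in ΔSCC4 (log2 fold change 0.64, SE 0.159, adjusted p = 0.0293). Its call was lost without control A replicate 2 (0.71) or 3 (0.54) or ΔSCC4 replicate 2 (0.60) or 3 (0.64). ZNF671 (0.63), ZNF181 (0.62) and ZNF71 (0.55) were the other rises in that fit. Its only falls were those of ZNF486 and ZNF256, whereas with the block 22 genes were lower, 13 of them on 19p. ZNF486 had 0.453, 0.404 and 0.620 CPM in ΔSCC4 (-1.95, SE 0.321, adjusted p = 0.00297) and ZNF256 had 2.27, 2.63 and 3.24 CPM (-1.28, SE 0.192, adjusted p = 0.00167). Both were under control A in every sample. ZNF793, by contrast, had 3.63, 4.75 and 6.54 CPM in ΔSCC4, overlapping control A (0.76, adjusted p = 0.128, and 0.77 with adjusted p = 0.00224 with the block).

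By cluster, q5 gave 3 of 14 genes higher with a median of 0.39 and 13 positive values, and 7 of 14 higher and none lower with the block. Cluster q6 gave 4 higher and 1 lower of 36 with a median of 0.19 and 31 positive values, and 15 higher and 1 lower with the block. Cluster q1 gave 1 of 5 higher (median 0.36) and 3 with the block. The clusters of 19p had medians of -0.01 (p1), -0.06 (p2) and -0.06 (p3), and cluster p2, where 7 of 14 genes were higher over both WAPL-deficient clones, had no gene past the threshold and 1 with an unadjusted p under 0.05 (1 higher and 3 lower with the block).

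**Figure D5:**
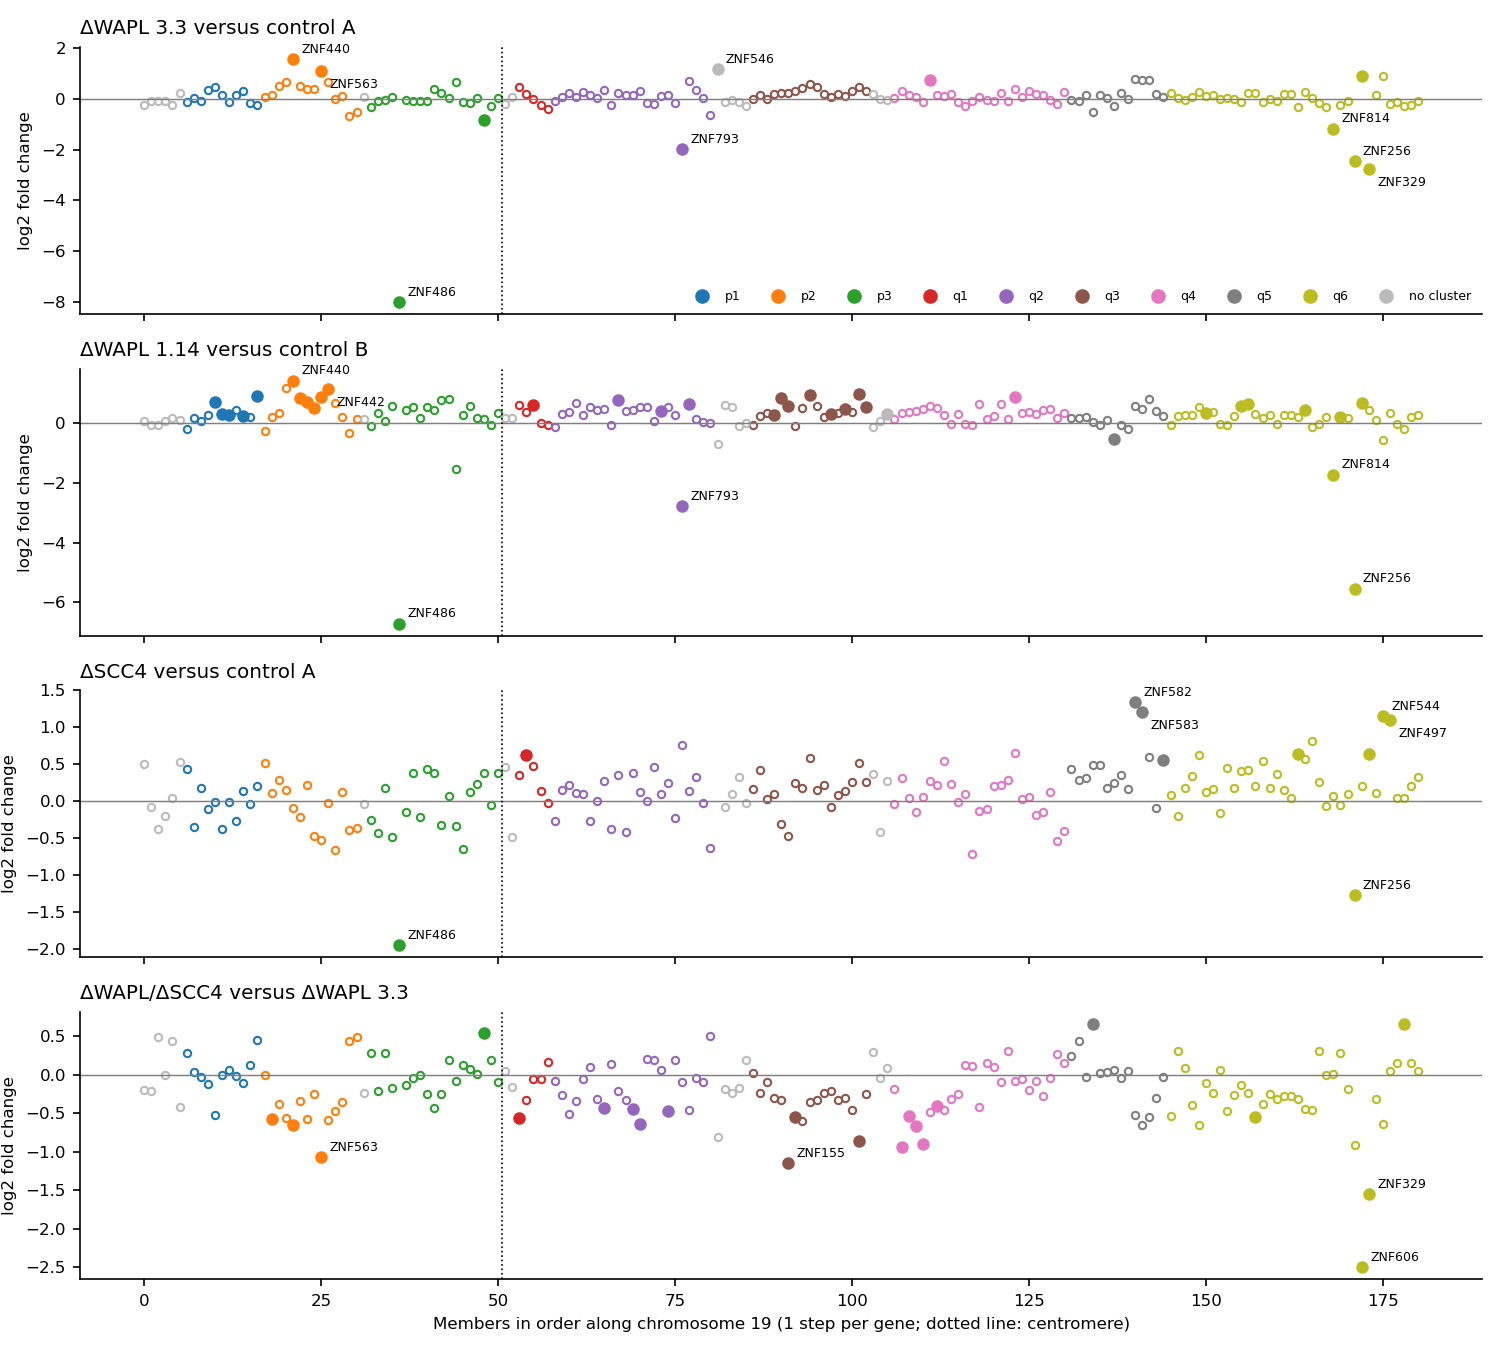
Log2 fold change of the zinc finger genes in their order along chromosome 19 in 4 comparisons, with filled points for genes past the threshold, open points for the others, colours for the 9 clusters and a dotted line for the centromere; names mark genes past the threshold with a change over 1 on the log2 scale. Falls of ZNF486, ZNF793, ZNF814 and ZNF256 recur in both ΔWAPL clones, and ZNF606 and ZNF329 fall most in ΔWAPL/ΔSCC4 against clone 3.3. Rises past the threshold in ΔSCC4 lie on the right, on 19q, in the fit shown, which has no replicate block. With the block 9 genes of 19p were higher too.

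ΔWAPL/ΔSCC4 cells were compared with control A and with clone 3.3, from which they were made. Against control A, 9 of the 181 genes passed, 1 higher and 8 lower (4.97%), beside 7.95% of all genes tested, 4.65% higher and 3.3% lower. The median was -0.06, and it was 0.04 without control A replicate 3. The count was 16 without control A replicate 1 and 21 with a GC correction, beside 1552 and 1759 over all genes, from 1001. On 19q 7 genes were lower and none higher, and on 19p ZNF440 was higher and ZNF486 lower.

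ZNF486 was at 0.0569, 0.0615 and 0.0567 CPM, which is 1 read in each sample, and 32.8 times under control A (95% interval 10.9 to 162, for counting error only; adjusted p = 3.93e-05). ZNF329 was at 0.342, 0.615 and 0.170 CPM (log2 fold change -4.31, SE 0.29, adjusted p = 7.86e-06) and ZNF256 at 0.399, 0.800 and 0.738 CPM (-3.34, SE 0.227, adjusted p = 8.15e-06). Each of these was under all control A samples. ZNF793 was at 0.740, 0.800 and 0.567 CPM (-2.05, SE 0.292, adjusted p = 0.0012), ZNF606 at 1.54, 1.17 and 1.42 CPM (-1.60, SE 0.238, adjusted p = 0.00161), and ZNF814 at 0.854, 1.54 and 0.908 CPM (-1.15, SE 0.262, adjusted p = 0.0222). The other falls were those of ZNF350 (-1.002), a partner of BRCA1, and ZNF155 (-0.88). ZNF440 was the single rise, at 7.51, 7.995 and 6.52 CPM (0.94, SE 0.24, adjusted p = 0.0387), lost without control A replicate 2 (1.10) or ΔWAPL/ΔSCC4 replicate 1 (0.93) or 2 (0.87), with at least 10 counts in every sample (adjusted p = 0.0517), and with a GC correction and the replicate block (adjusted p = 0.0564).

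Against clone 3.3, 22 of 180 genes passed, 3 higher and 19 lower. That is 12.2% of the genes, 1.67% higher and 10.6% lower, beside 10.6% of all genes tested, 6.05% higher and 4.55% lower. The median was -0.18 with -0.01 over all genes, and it was -0.09 on 19p (1 higher, 3 lower of 50) and -0.21 on 19q (2 higher, 16 lower of 130). ZNF genes of other chromosomes gave 7 higher and 11 lower of 209 with a median of -0.04, and the genes of low GC content had a median of -0.09 (2.85% higher, 6.67% lower). The count was 8 without clone 3.3 replicate 2, 39 without clone 3.3 replicate 3, 12 without ΔWAPL/ΔSCC4 replicate 1, 8 without its replicate 3, and 36 with a GC correction, beside 861, 1805, 919, 920 and 2454 over all genes, from 1330.

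ZNF606 changed most. Its 8.24, 8.62 and 6.57 CPM in clone 3.3 stood against 1.54, 1.17 and 1.42 CPM in ΔWAPL/ΔSCC4, so the gene was above control A in the first and under it in the second (log2 fold change -2.50, SE 0.194, adjusted p = 1.63e-07). ZNF329, already low in clone 3.3, fell by a further 1.55 (SE 0.387, adjusted p = 0.0152), a call lost without clone 3.3 replicate 2 (-1.44) or ΔWAPL/ΔSCC4 replicate 3 (-1.20). ZNF155 (chr19:44472014-44502478, plus strand, cluster q3) had 5.49, 4.67 and 4.31 CPM in clone 3.3 and 2.45, 1.78 and 2.33 CPM in ΔWAPL/ΔSCC4 (-1.15, SE 0.189, adjusted p = 0.000602). The groups did not overlap for any of these.

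ZNF563 had 1.71, 2.03 and 1.31 CPM in ΔWAPL/ΔSCC4, within the range of control A (-1.07 against clone 3.3, SE 0.218, adjusted p = 0.00373), and ZNF440 lay between control A and clone 3.3 (-0.65, adjusted p = 0.0439). ZNF577 (-0.94, adjusted p = 0.0210) lost its call without clone 3.3 replicate 1 (-0.73) or 2 (-0.89) or ΔWAPL/ΔSCC4 replicate 3 (-0.73). ZNF577 overlaps ZNF649, a gene of 11.7 CPM, on the same strand, and its counts are uncertain for that reason. The rises were those of ZNF865 (0.66, adjusted p = 0.00640), ZNF324B (0.66, adjusted p = 0.00445) and ZNF681 (0.54, adjusted p = 0.0429), the last lost without clone 3.3 replicate 2 (0.59) or 3 (0.44) or ΔWAPL/ΔSCC4 replicate 2 (0.43) or 3 (0.56). Cluster p2 had a median of -0.43 with 3 of 14 lower, cluster q3 -0.32 with 3 of 17 lower and 1 positive value, cluster q4 5 of 25 lower, cluster q2 4 of 23 lower, and cluster q6 -0.26 with 1 higher and 3 lower of 36.

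The change with SCC4 loss was tested against itself in the 2 backgrounds, as the change from clone 3.3 to ΔWAPL/ΔSCC4 minus that from control A to ΔSCC4. It differed for 26 of the 181 genes, 2 with a positive and 24 with a negative difference. These were 14.4% of the genes, 1.1% positive and 13.3% negative, beside 11.3% of all genes tested, 5.85% positive and 5.48% negative. The arms differed in these counts, with 2 positive and 2 negative of 51 on 19p (median 0.03) and none positive and 22 negative of 130 on 19q (median -0.35). Whether the arms differ was not tested. ZNF genes of other chromosomes gave 4 positive and 19 negative of 211 (median -0.12). The relation with GC content was weak (rho -0.07 over all genes). The count was 14 without control A replicate 2, 15 without clone 3.3 replicate 2, 16 without ΔSCC4 replicate 2, 15 and 13 without ΔWAPL/ΔSCC4 replicate 1 and 3, and 61 with a GC correction. Over all genes it was 1453, and 1140, 1114, 1149, 1137, 1190 and 3233 in the same order.

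The 10 genes with the smallest p were all negative and included the neighbours ZNF582 and ZNF583. ZNF606 led with -2.69 (SE 0.299, adjusted p = 2.15e-05), then ZNF112 (-1.37, adjusted p = 0.000648), ZNF582 (-1.85, adjusted p = 0.000714), ZNF329 (-2.18, adjusted p = 0.00125), ZNF583 (-1.84, adjusted p = 0.00198) and ZNF544 (-1.77, adjusted p = 0.00321). ZNF582, higher in ΔSCC4 than in control A, had 1.498, 1.49 and 1.99 CPM in clone 3.3 and 1.08, 1.29 and 1.08 CPM in ΔWAPL/ΔSCC4, and ZNF544 had 3.99, 2.26 and 2.06 CPM against 1.54, 1.91 and 2.04 CPM. Both passed as higher with SCC4 loss in wild type cells, while the change in clone 3.3 did not pass for either (ZNF582 -0.52, adjusted p = 0.222, and ZNF544 -0.64, adjusted p = 0.144, edgeR). ZNF181 (-0.94), ZNF432 (-0.99), ZNF302 (-0.91) and ZNF420 (-0.82), which encodes a KRAB repressor of p53, completed the 10. ZNF432 overlaps ZNF841 on the same strand and ZNF420 overlaps ZNF585A on the other. The value of ZNF486 was 5.02, but with no count in clone 3.3 it depends on the prior count and gives no size. Cluster q6 gave 8 negative of 36 (median -0.42), and cluster q3 gave 3 of 17 with no positive value (median -0.45).

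Control B was compared with control A as a measure of how far wild type samples differ. Of the 181 genes 4 were past the threshold, all higher in control B (2.21%), beside 0.64% of all genes tested and 0.56% higher. The median was 0.10 with 115 of 181 values positive (63.5%), against -0.02 and 46.6% over all genes. They were ZNF486 (1.78, SE 0.21, adjusted p = 0.0100), ZNF793 (1.35, adjusted p = 0.0354), ZNF544 (1.11, adjusted p = 0.0398) and ZNF814 (1.05, adjusted p = 0.0344). This comparison shares its samples with those of the clones. None of the 181 passed without control A replicate 1 or 2, and 1 passed without control B replicate 1 or 3, beside 9, 0, 22 and 72 of all genes, from 80.

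A fixed list of co-repressors of KRAB zinc finger proteins and of other genes tied to chromatin silencing was measured in the same samples. A place on the list does not mean that a gene acts with KRAB proteins. TRIM28 was at 700.2 ± 96.9 CPM in control A, 658 ± 97 CPM in clone 3.3, 760 ± 104 CPM in ΔSCC4, 640 ± 71.4 CPM in ΔWAPL/ΔSCC4, 640 ± 38.4 CPM in control B and 575 ± 23.1 CPM in clone 1.14, with no comparison past the threshold and each knockout overlapping its controls. Of 33 genes of this list tested, none passed in clone 3.3, where 4 had an unadjusted p under 0.05 (edgeR). None passed in ΔWAPL/ΔSCC4 against control A, where 2 had such a p, or against clone 3.3, where 0 did. Of all genes tested 8.07%, 7.95% and 10.6% passed in the same order. Clone 1.14 and ΔSCC4 each gave 1 of 33 higher and 1 lower, beside 20.1% and 9.49% of all genes. Over both clones 2 of 33 were lower, beside 17.7% of all genes passing. The difference between backgrounds gave 1 positive and 1 negative, beside 11.3%. In clone 1.14 CBX5, a heterochromatin protein, was higher (0.23, adjusted p = 0.00738) and RBBP7, a histone chaperone of the NuRD complex, lower (-0.19, adjusted p = 0.0197). In ΔSCC4 KDM4A, a histone demethylase, was higher (0.51, adjusted p = 0.0381) and TRIM24, a relative of TRIM28, lower (-0.89, adjusted p = 0.0204). Over both clones TRIM24 (-0.36, adjusted p = 0.0464) and KDM4A (-0.27, adjusted p = 0.0232) were lower, and the change with SCC4 loss differed between backgrounds for RBBP7 (0.43) and for the chromatin remodeller ATRX (-0.64).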

How the data were processed

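Polyadenylated RNA was sequenced as strand-specific libraries from 18 samples. The authors aligned the reads with TopHat (the submitters' processing notes name TopHat2 2.0.9, HTSeq, DESeq2 1.10.1 and the build hg19) and deposited raw counts of reads per gene made with HTSeq; the annotation and strand setting of the counting are not given in the sources used here. Reads that matched more than 1 place, 14.3% to 16.1% of those listed, and reads assigned to no gene were left out of the totals.

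Gene positions came from the GENCODE annotation of GRCh37, in which 96.6% of the gene identifiers were found. Counts were normalized by TMM, filtered with filterByExpr and tested gene by gene with the quasi-likelihood F test of edgeR 4.0.16 under R 4.3.3, with Benjamini-Hochberg adjusted p-values at 0.05. SE was taken as the size of the log2 fold change divided by the root of F. Per-sample log2 values used a prior count of 2. Each comparison used only its own groups, and the 2 tests of differences used interaction terms. The fits were tested on simulated data. The genes, clusters and lists were chosen with earlier results of these data known. Named with values were, for each genotype comparison, the 5 largest rises and 5 largest falls past the threshold, genes past it in both clones or in a test of differences (at most the 10 with the smallest p), and the 5 highest levels per kilobase. Further genes in the text were named after their values were seen.

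Replicate numbers came from the titles. For ΔSCC4 and control A, deviations from the group means were correlated across genes between samples with the same number. The correlations were 0.741, 0.156 and 0.679, all over 0.1. The main fit of ΔSCC4 and the test of the difference between backgrounds nevertheless left this pairing out. Values for ΔSCC4 are from the unpaired fit, with 10 genes past the threshold, unless the block is named. The paired fit, with 67 such genes, is an alternative given beside it. Alternatives were DESeq2 1.42.0, scaling by its size factors, testing unfiltered genes or those with 10 counts or more in each sample, 1 fit over all samples, the replicate block, a GC correction in 20 bins, and leaving out each replicate. The 95% intervals are exact and cover counting error only; the floor for no counts was 3 counts over the group.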

Additional observations from a re-analysis of the deposited data

Results flagged for a closer look

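The change with SCC4 loss differed between the wild type background and clone 3.3 for 26 genes by the interaction test (edgeR, adjusted p under 0.05), as the log2 change in clone 3.3 minus that in control A. In cluster q6 the differences were -2.69 for ZNF606, -2.18 for ZNF329, -1.77 for ZNF544, -1.27 for ZNF547, -1.04 for ZNF497, -1.004 for ZNF776, -0.94 for ZNF671 and -0.92 for ZNF416. In cluster q5 they were -1.85 for ZNF582, -1.84 for ZNF583 and -0.58 for ZNF71. In cluster q3 they were -1.37 for ZNF112, -0.79 for ZNF230 and -0.65 for ZNF428. Clusters q1, q2 and q4 gave -0.94 for ZNF181 and -0.91 for ZNF302, -0.82 for ZNF420, -0.70 for ZNF569 and -0.70 for ZNF567, and -0.99 for ZNF432, -0.94 for ZNF350 and -0.61 for ZNF614. On 19p the values were -0.94 for ZNF358, -0.66 for ZNF627, 0.89 for ZNF57 and 5.02 for ZNF486, the last with no count in clone 3.3.

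The change with WAPL loss differed between clone 3.3 and clone 1.14, as the log2 change in the first minus that in the second, by -3.20 for ZNF329, 3.11 for ZNF256, 1.89 for ZNF546 and 1.52 for ZNF544.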

How the results depend on the processing

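No result changed sign past the threshold under any alternative run. Counts of genes past the threshold that moved by over 1.5 times were as follows. In 1 fit over all samples they were 17 (from 11) for clone 3.3, 29 (from 10) for ΔSCC4, 13 (from 22) for ΔWAPL/ΔSCC4 against clone 3.3 and 7 (from 4) for control B against control A. With at least 10 counts in every sample they were 5 (from 9) for ΔWAPL/ΔSCC4 against control A and 1 (from 4) for the difference between the clones. With a GC correction they were 30 for ΔSCC4, 21 and 36 for ΔWAPL/ΔSCC4 against control A and clone 3.3, and 61 (from 26) for the difference between backgrounds. With a GC correction and the replicate block they were 69 (from 36) for clone 1.14, 76 for ΔSCC4 and 59 for the difference between backgrounds. With the replicate block they were 67 for ΔSCC4, 37 for ΔWAPL/ΔSCC4 against clone 3.3 and 2 for the difference between the clones, and within 1.5 times in the rest: 9 for clone 3.3, 49 for clone 1.14, 22 over both clones, 9 for ΔWAPL/ΔSCC4 against control A and 21 for the difference between backgrounds. Outside ΔSCC4 the correlations of same-numbered samples were not all over 0.1, so no pairing was inferred there. These ran from -0.57 to -0.01 for clone 3.3 and from 0.07 to 0.37, all positive, for clone 1.14. For ΔWAPL/ΔSCC4 they ran from -0.60 to 0.29 with control A and from -0.39 to 0.41 with clone 3.3. The titles give only a number in every group, so whether any samples were paired by design is not known. No paired fit was made for control B against control A.

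Leaving out 1 replicate gave 6 to 15 genes for clone 3.3, 11 to 88 for clone 1.14, 20 to 54 over both clones, 5 to 27 for ΔSCC4, 6 to 16 and 8 to 39 for ΔWAPL/ΔSCC4 against control A and clone 3.3, 2 to 4 for the difference between the clones, 13 to 27 for the difference between backgrounds and 0 to 6 for the controls. The medians ran from -0.02 to 0.17, 0.20 to 0.36, 0.14 to 0.24, 0.00 to 0.25, -0.13 to 0.04 and -0.26 to -0.07 for the first 6 of these. Of 67 named changes, DESeq2 lost 1 (ZNF681 against clone 3.3), and its size factors, no filter and the GC correction lost 0. With at least 10 counts in every sample 17 were not tested, 47 were kept and 3 were lost (ZNF440 in ΔWAPL/ΔSCC4 against control A, and ZNF544 and ZNF546 between the clones). In 1 fit over all samples 5 were lost (ZNF284 and ZNF846 in clone 1.14, ZNF302 between backgrounds, ZNF546 between the clones and ZNF681). The block lost 4 (ZNF615 in clone 3.3, ZNF471 over both clones, and ZNF544 and ZNF546 between the clones), and the block with a GC correction lost 5 (ZNF440 in ΔWAPL/ΔSCC4 against control A, ZNF544 between the clones, and ZNF546, ZNF563 and ZNF814 in clone 3.3). The causes of lost calls were not tested. Low counts limit several named genes, ZNF486, ZNF546 and ZNF563 among them. Over the 3 samples of a group ZNF486 had 0 to 323 counts, ZNF546 11 to 117 and ZNF563 44 to 184. ZNF256 had 11 counts in clone 1.14 and 33 in ΔWAPL/ΔSCC4, and ZNF329 had 19 in ΔWAPL/ΔSCC4. ZNF793 had 37 in clone 3.3 and 36 in ΔWAPL/ΔSCC4. The sizes of these falls are uncertain for that reason.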
